A study of Mus musculus with 4 samples.

Results

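The cytosolic ribosome of the mouse is built from ribosomal RNA and a set of proteins named for the large subunit (Rpl genes, with the stalk proteins Rplp0, Rplp1 and Rplp2) or the small subunit (Rps genes and Rpsa). Protein-coding genes with these symbols were taken, leaving out pseudogenes and the S6 kinases, whose symbols share the Rps6k stem. The rule gave 83 genes. Of these, 81 had values in both liver libraries, 13 in 1 embryo library and 10 in the other, and 10 had values in all 4 libraries, against 33783 genes with values in any library. Rpl13 and Rpl41 matched no identifier in the files and were not analysed here. The rule reads symbols alone, so it misses 5 ribosomal proteins held in the files under other names, such as Fau and Rack1. A further 1, Rps4l, is not annotated as protein-coding.

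The samples were RNA sequencing libraries from total RNA, 1 per group. Whole embryos at E11.5, of the strain given as C57B16/N, were labelled Adar1-/- or Adar1-/-; Mavs-/-. Embryonic livers at E15.5, of the strain given as C57B6/J, carried the same 2 genotype labels. By these labels all 4 groups lack Adar1, an RNA editing enzyme that deaminates adenosines of duplex RNA, and each tissue pairs a library with and a library without Mavs, the adaptor through which cytoplasmic RNA sensors signal. There is no wild-type library. The sources used here do not give how the alleles were made or whether a library pools animals. With 1 library a group, no difference below has a replicate check, and none has a p-value.

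Ribosomal protein mRNAs are among the most abundant messages of a growing cell. In vertebrates they typically begin with a C followed by a run of pyrimidines, the terminal oligopyrimidine (TOP) tract, through which mTOR signalling and the RNA-binding protein LARP1 control their translation together. Each protein is made from a single main gene, but these short and abundant messages have been copied back into the genome many times, which leaves large families of processed pseudogenes. Loss of a single copy of several of these genes causes Diamond-Blackfan anaemia, a failure of red cell production, and the fetal liver is where red cells are made at this age.

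The starts of the members that the comparisons turn on are shown first, because the tract lies at the first base of the message. Each window holds 5 bases before and 25 from the RefSeq start site (GRCm38.p6, credited to RefSeq), 5′ to 3′ on the gene's strand. A tract was scored where a C at the start or within 5 bases of it was followed by at least 4 C or T, on the gene's strand only. Capitals mark the scored run and a window without capitals holds none. Both Rpl19 runs lie wholly before the annotated start and were counted by this rule.
Rpl19, first start, chr11:98026705-98026734, plus strand: CCCTCactgcgcatgtgcgccgcggagtcg
Rpl19, second start, chr11:98026919-98026948, plus strand: CCTTCgcagataatgggcggagcctgcggc
Rpl23, chr11:97782415-97782444, minus strand: gtcacgtggctgagtgggcggggcctcccg
Rpl26, chr11:68901561-68901590, plus strand: cttacagaaccggaagtcgcgtgtagttct
Rpl27, chr11:101442240-101442269, plus strand: cctgtctgctgctcgtgctgctaataaagc
Rpl38, chr11:114668575-114668604, plus strand: tcgttCTTTCCCCgttctcttcggttctca
Rps12, chr10:23787185-23787214, minus strand: cggccaccgccggccttttcccctgccgcc
Rps15, chr10:80292426-80292455, plus strand: ctcgcgataactgcgcaagcgcagcccgta
Rps26, chr10:128626482-128626511, minus strand: ccgccggatCCTCTTTCgagtcttggctcc
Rpl28, chr7:4792960-4792989, plus strand: tgtctCTCTTTCCgtctccggccgccatag
Rplp2, chr7:141447646-141447675, plus strand: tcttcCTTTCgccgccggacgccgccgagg
Rps3a1, chr3:86142644-86142673, minus strand: aagggcgaaagagcaagggtcacgtagacg
Rpl35a, first start, chr16:33056448-33056477, plus strand: cgtcccacaaggccgcgcggcggggcttgc
Rpl35a, second start, chr16:33056477-33056506, plus strand: ccttcCTCTTTCCgccatcttggcgcctgt
Rpl35a, last start, chr16:33056509-33056538, plus strand: aggtgaggggggttcctgctgctgagcttt
Rpl9, chr5:65391407-65391436, minus strand: ctgacggattacaagaacgtgatgacgaaa

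Rpl23a and Rps27a have no entry in the RefSeq table. Over all members, 63 of 83 had an entry and 29 of these (46.0%) held a tract by this rule, against 21.2% of the 27025 genes in the table. Translation factor genes on the list used below held one in 6 of 15 cases (40%), and mitochondrial ribosomal protein genes in 17 of 69 (24.6%). A window without a tract says only that these letters are not at the annotated start, which can lie some bases from the start used.

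In embryos the files held chromosomes 10 and 11 and a first stretch of chromosome 12 in the Adar1-/- library, and ran on into chromosome 13 in the Adar1-/-; Mavs-/- library. Among the 10 ribosomal protein genes in the shared stretch, all were above 0 in both libraries, and 9 lay within 2-fold of each other. Values are FPKM as deposited, which count fragments per kilobase of a transcript against the depth of its library. Log2 ratios are of FPKM plus 1, the Adar1-/-; Mavs-/- library over the Adar1-/- library, after 1 scaling factor per tissue that set to 0 the median of genes reaching 5 FPKM in each. The factor was 1.34 in embryos, from 973 genes.

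The small subunit genes of the shared stretch spanned the whole range of levels. Rps26, a protein at the mRNA exit channel (chromosome 10, 128061586 to 128063562 in mm9), was the most abundant, with 1054 FPKM in the Adar1-/- library and 1197 in the Adar1-/-; Mavs-/- library, a log2 ratio of 0.60. Rps15 had 931.2 and 697.9 FPKM, a ratio of 0.00 after scaling. Rps27a, which encodes ubiquitin fused to the ribosomal protein, had 44.2 and 51.2 FPKM, a ratio of 0.62. Those 3 genes were thus level or higher in the Adar1-/-; Mavs-/- library after scaling, although the deposited value of Rps15 was lower there.

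Rps12, a small subunit protein (chromosome 10, 23504990 to 23507015), was the 1 member counted as 2-fold higher, with 7.11 FPKM in the Adar1-/- library and 23.9 in the Adar1-/-; Mavs-/- library, a ratio of 2.02. Its Adar1-/- value came wholly from an assembled isoform of 2984 bases, and its coding reference isoform was listed at 0 there and had 20.2 FPKM in the other library. With isoforms of status OK alone the ratio was -0.47, and with its near-identical copies added it was 0.12. The ratio thus changed with the isoforms and copies that were counted. How reads were shared among them was not tested.

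The large subunit genes of the shared stretch lay closer together, and all 6 lay between 0.04 and 0.36 on the log2 scale. Rpl19 had 487.7 FPKM in the Adar1-/- library and 390.3 in the Adar1-/-; Mavs-/- library (ratio 0.10), and Rpl26, a Diamond-Blackfan gene that also binds the p53 message, had 427.3 and 328.2 (0.04). Rpl23a, at the exit of the nascent chain tunnel, had 189.8 and 177.1 (0.32). Rpl27 had 188.4 and 180.5 (0.36). Rpl38, known from mice whose axial skeleton is patterned abnormally when a copy is lost, had 169.3 and 147.1 (0.21). Rpl23, which binds the p53 regulator Mdm2, had 146.9 and 123.6 (0.17). Every deposited value of these 6 genes was lower in the Adar1-/-; Mavs-/- library, and every ratio was above 0 after scaling.

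Over the 10 members the median log2 ratio was 0.27, all 10 ratios were above 0, 1 was at least 2-fold higher and 0 were lower. Among the 1916 embryo genes of at least 1 FPKM in either library, 6.42% were 2-fold higher, 9.76% were 2-fold lower and 41.3% lay above 0, with a median of -0.12. After the factor was applied, the confidence bounds of the 2 libraries were apart for 8 of the 10 members, Rpl26 and Rps15 being the exceptions, all 8 on the higher side, against 22.7% of all counted genes on that side and 36.5% on the lower. Without the factor, the bounds were apart on the lower side for 5 members (Rpl19, Rpl23, Rpl26, Rpl38 and Rps15) and on the higher side for 2 (Rps12 and Rps26). Abundant genes are the closer comparison, and of the 154 genes at or above 50 FPKM in each library 74% lay above 0 and 7.14% were 2-fold higher, with a median of 0.22. The direction rests on the scaling. With FPKM as deposited the members' median was -0.15 with 30% above 0, and with values rescaled to TPM over shared genes it was -0.67 with 10% above 0. On the scale used for the members, 1 of 4 cell cycle markers had a ratio above 0 (median -0.45) and 3 of 3 erythroid markers did (median 0.23). Both muscle markers counted lay below 0 (median -0.74), as did the 1 neural marker (-0.75), and the 1 macrophage marker was at 1.35. The part of these in the members' values was not tested.

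**Figure D1:**
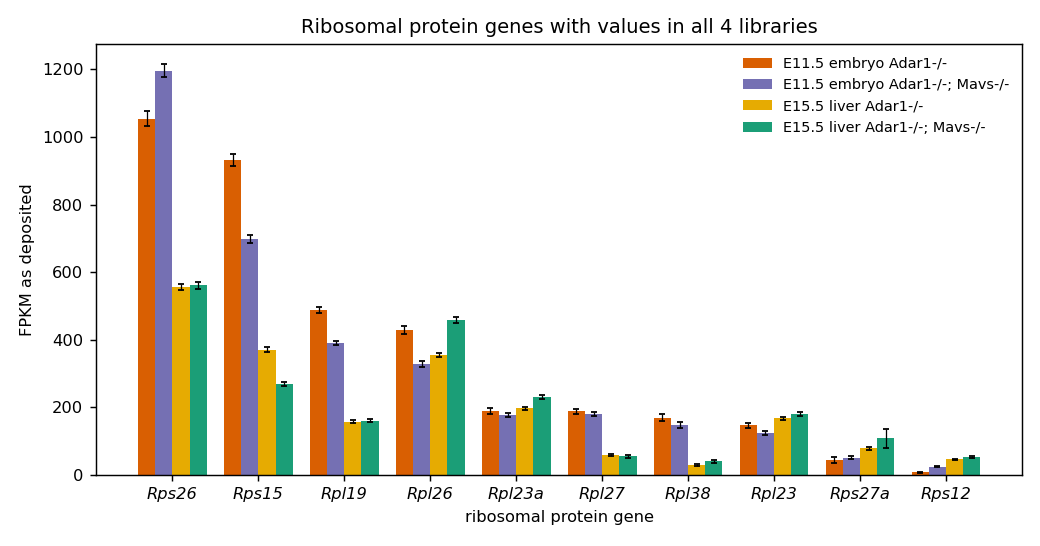
FPKM as deposited (vertical axis, linear) of the 10 ribosomal protein genes with values in all 4 libraries, 1 bar a library. Error bars are confidence bounds of a gene, combined from the deposited bounds of its isoforms. They cover estimation within a library only. Rps26 is highest in both embryo libraries, and Rps26, Rps15, Rpl38, Rpl27 and Rpl19 are lower in both liver libraries than in both embryo libraries.

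Beyond the shared stretch the embryo Adar1-/-; Mavs-/- library held 3 further members. Rps7, a Diamond-Blackfan gene whose product also binds Mdm2, had 40.2 FPKM and Rps29, another Diamond-Blackfan gene, 4.86 FPKM. Rpl10l, a copy of Rpl10 known from the male germ line, was listed at 0.

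The 4 libraries were of unequal depth. No source used here gives read totals. Coverage per FPKM, which follows depth, was 3.48 and 5.62 for embryos and 8.58 and 7.13 for livers, Adar1-/- first. For genes of at least 50 FPKM the median distance from a value to its confidence bound was 4.18, 3.19, 2.75 and 3.03% of the value in the same order. In liver, 0 of 8 reference isoforms of Adar were above 0 in the Adar1-/- library and 3 of 8 in the library labelled Adar1-/-; Mavs-/-, where they held 2.81 FPKM. All isoforms of Adar summed to 5.56 and 4.11 FPKM. Mavs was present in both, at 7.26 and 9.96 FPKM over all isoforms and 4.79 and 6.82 over reference isoforms, and thus higher in the library labelled as lacking it. Which part of either gene was deleted is not known here, so isoform values may not check the labels. The library labelled Adar1-/-; Mavs-/- may go against its label on both genes, so the liver libraries are called Adar1-labelled and Adar1-Mavs-labelled below. All 10 hepatocyte markers were held in both, with Alb, the gene of serum albumin, at 4787 and 6648 FPKM. All 13 counted markers of skeletal and heart muscle had less than 0.5 times the level in the Adar1-Mavs-labelled library (summed 116.9 and 2.17 FPKM), 3 of 7 macrophage markers were 2-fold higher there, 7 of 8 cell cycle markers had ratios above 0 (median 0.47), and the 5 erythroid markers held had a median of 0.23. The part of these differences in the ribosomal protein values was not tested, and in bulk tissue fewer cells of a type and less RNA per cell cannot be told apart.

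In E15.5 liver the ribosomal protein genes were high in both libraries and 74 of 79 lay within 2-fold between them. The median member had 137.8 FPKM in the Adar1-labelled library and 144.7 in the Adar1-Mavs-labelled library, and 51 and 53 of 81 members had at least 100 FPKM. Their sums were 16322 and 17888 FPKM, 1.28 and 1.16% of the FPKM of all named genes. Rplp1, an acidic stalk protein of the large subunit (chromosome 9, 61761091 to 61762345), was the most abundant at 1075 and 1142 FPKM (log2 ratio 0.08). Next by mean level came Rpl22 at 616.9 and 960.1 (0.63), Rps24 at 518.2 and 798.7 (0.62), Rpl32 at 623.8 and 691.0 (0.14) and Rpl4 at 575.7 and 737.7 (0.35). Each ribosome holds most of these proteins in equal number, yet the levels of members without the paralogs differed by 17.5-fold and 18.7-fold between the 10th and 90th percentiles of genes in the 2 libraries. The order of the members was much the same in both, with Spearman's rho of 0.94 and Pearson's r of 0.96 over 79 genes, a description across genes that share their libraries and copies. An isoform of non-coding type, of 369 bases, held 80.2% of the Rpl22 value in each liver library. In the Adar1-Mavs-labelled library the most abundant isoform of 22 members was not of coding type. The summed values are thus not levels of coding messages alone.

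**Figure D2:**
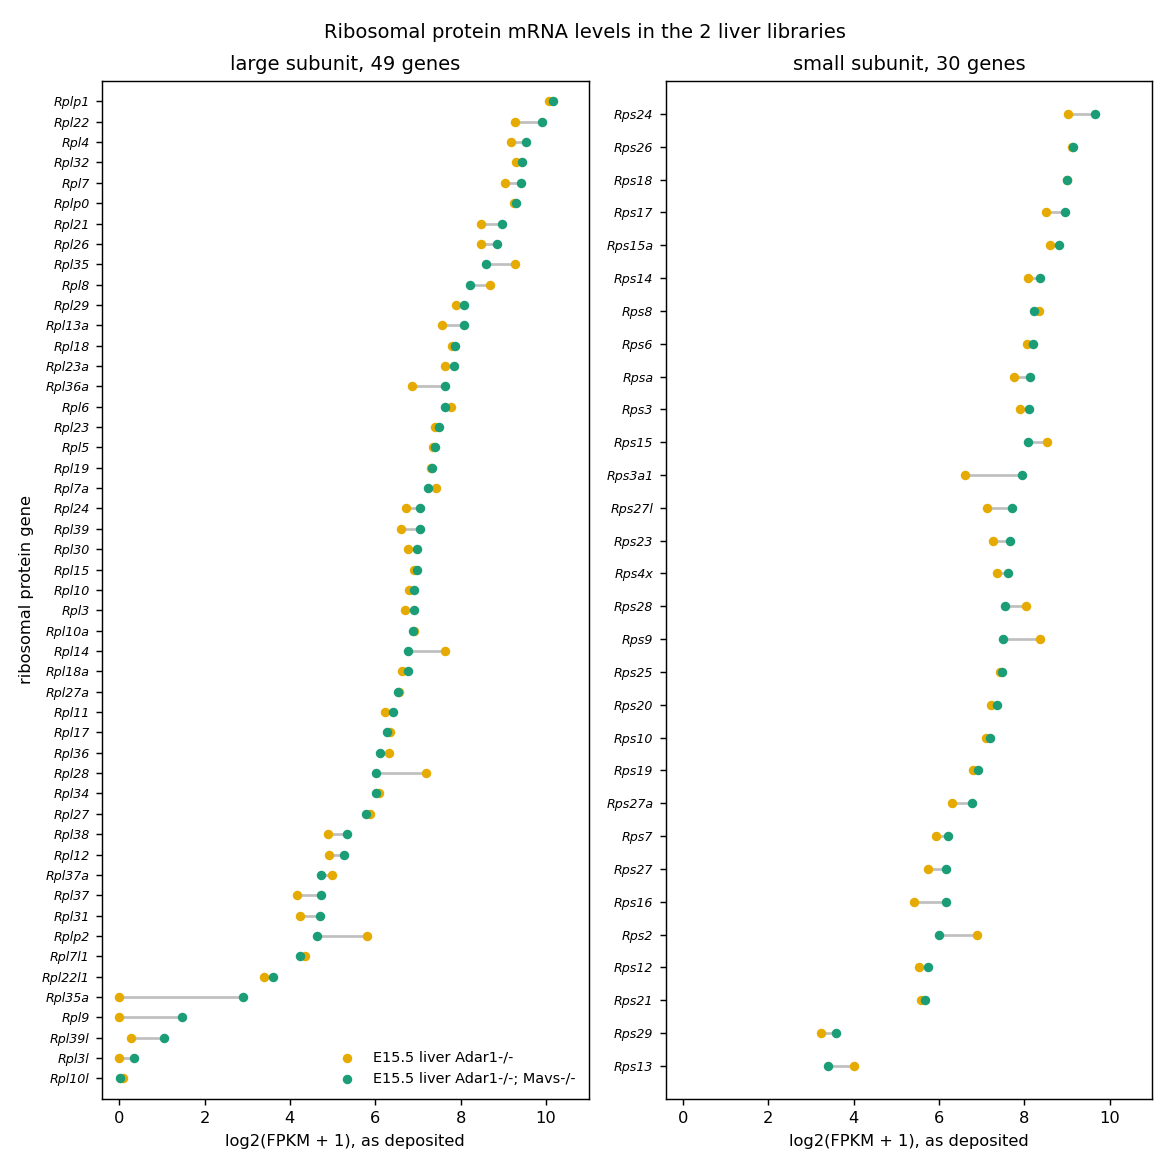
Log2 of FPKM plus 1, as deposited (horizontal axis), of 79 of the 81 members in the 2 liver libraries, large subunit on the left and small subunit on the right, ordered by the Adar1-Mavs-labelled library. Most pairs of points lie close together, Rpl35a and Rpl9 are at 0 in the Adar1-labelled library, and Rps3a1, Rpl28 and Rplp2 have the widest gaps among the other abundant genes.

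The liver scaling factor was 0.995, from 6889 genes, and 79 members had at least 1 FPKM in either library. Their median log2 ratio was 0.14, 56 of 79 (70.9%) were above 0, while 3 were past 2-fold on the higher side and 2 past it on the lower side in the Adar1-Mavs-labelled library. Among the 13851 liver genes counted the same way, 6.53% were 2-fold higher, 9.75% were 2-fold lower and 42% lay above 0, with a median of -0.12. Among the 1006 genes at or above 50 FPKM in each library the shares were 2.39%, 1.89% and 68.2%, with a median of 0.17. The members' shares past 2-fold were 3.80% and 2.53%, but members were counted from 1 FPKM in either library. The 1006 genes also include members. Of those past 2-fold, Rpl9 and Rpl35a (0 FPKM in the Adar1-labelled library) and Rplp2 (23.9 in the other) fall below the 50 FPKM cut. The sets are thus not matched for level. After scaling, the confidence bounds of the 2 libraries were apart for 60 of the 79, 44 higher (55.7%) and 16 lower (20.3%), against 28.3% and 42.9% of all counted genes. Bounds of abundant genes are narrow and hold no difference between animals. With TPM the members' median was -0.18 and 32.9% were above 0, so the direction of the median rests on the scaling here too.

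**Figure D3:**
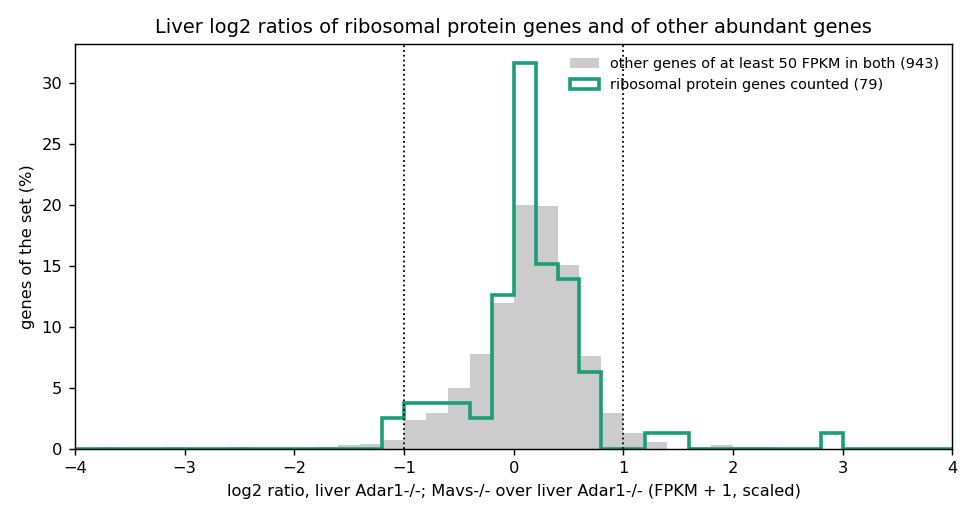
Distribution of liver log2 ratios (horizontal axis, Adar1-Mavs-labelled over Adar1-labelled, FPKM plus 1, scaled) as the percentage of genes of each set, for the 79 members counted (green line) and 943 other genes of at least 50 FPKM in both libraries (grey). Dotted lines mark 2-fold. Both sets peak just above 0, and few members lie past the lines.

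Genes of both subunits were spread around a median just above 0 in liver. The 47 counted large subunit genes had a median log2 ratio of 0.13, with 32 above 0, 2 at least 2-fold higher and 2 lower. The 32 small subunit genes had a median of 0.18, with 24 above 0, 1 at least 2-fold higher and 0 lower. The 19 Diamond-Blackfan genes had a median of 0.20, 16 of 19 above 0 and 1 (Rpl35a) counted as 2-fold higher. Among them Rps19, the gene most often mutated in that anaemia, had 110.4 and 118.7 FPKM (0.10), Rpl5 had 163.4 and 167.5 (0.03), and Rpl11 had 73.5 and 84.8 (0.20). A retained-intron isoform held 96.3 and 96.9% of the Rps19 value, and an isoform of non-coding type all of the Rpl11 value. The most abundant Rpl5 isoform, with 39.6 and 51.9% of its value, was also of the retained-intron type. Rpl35 and Rps28 were the lowest of the list, at -0.69 and -0.50. With near-identical copies added Rpl35 turned to 0.16, its 5 copies summing to 1390 and 1863 FPKM, while Rps28 was at -0.56.

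The 2 members at least 2-fold lower were Rpl28, a large subunit protein, and Rplp2, the stalk partner of Rplp1. Rpl28 (chromosome 7, 4744476 to 4746164) had 144.1 FPKM in the Adar1-labelled library and 63.9 in the Adar1-Mavs-labelled library, a ratio of -1.17. Rplp2 (chromosome 7, 148633269 to 148637484) had 54.6 and 23.9 FPKM, also -1.17, while Rplp1 and Rplp0 (608.0 and 633.4 FPKM, 0.05) of the same stalk were level. Just inside 2-fold were Rps2, near the mRNA entry channel, at 117.0 and 63.0 FPKM (-0.89), Rpl14 at 197.4 and 107.7 (-0.88) and Rps9 at 326.3 and 178.5 (-0.87). With near-identical copies added, Rpl28 stayed at -1.18 and Rplp2 at -1.15. Both were at -0.90 once ratios were centred among genes of like GC content, which leaves 0 members 2-fold lower.

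None of the 3 members counted as 2-fold higher stayed past 2-fold with its near-identical copies added. Rps3a1, a small subunit protein (chromosome 3, 85941862 to 85946624), had 96.6 FPKM in the Adar1-labelled library and 244.8 in the other, a ratio of 1.33. The sum of the 4 near-identical copies held beside it went the other way, at 697.3 and 585.3 FPKM. The most abundant copy, Rps3a2, was higher like the gene, at 236.3 and 309.4 FPKM. Gene and copies together had 793.9 and 830.1 FPKM, a ratio of 0.06. Rpl35a (chromosome 16, 33056539 to 33060275), a Diamond-Blackfan gene, was listed at 0 in the Adar1-labelled library and had 6.53 FPKM in the other, all of it in a retained-intron isoform of 2858 bases. Rpl9 (chromosome 5, 65779603 to 65782682) was listed at 0 and had 1.77 FPKM, from an assembled isoform of 5940 bases. No fold is given for either, since genes that every cell uses are listed at 0. Their copies held 384.2 and 420.5 FPKM for Rpl35a and 335.8 and 312.7 FPKM for Rpl9, and with copies added the ratios were 0.15 and -0.10. Just inside 2-fold on the higher side were Rpl36a at 115.7 and 197.2 FPKM (0.76) and Rps16 at 41.5 and 70.2 (0.74). So was Rpl39l, near the counting cut at 0.22 and 1.07 FPKM (0.77). With copies added to every member, 0 of 79 were 2-fold higher and 2 were lower, and the median was 0.14.

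In the liver libraries, pseudogenes held as much signal as the genes. Over the loci held in embryos they summed to 966.9 and 1154.5 FPKM, Adar1-/- first, below the 3646 and 3361 of the members. The 209 named ribosomal protein pseudogenes summed to 17675 FPKM in the Adar1-labelled liver library and 19249 in the Adar1-Mavs-labelled library, above the members' own sums. In 37 of the 55 members with named pseudogenes, the pseudogenes held more FPKM than the gene in both libraries. Rps24-ps3 was the highest, at 1437 and 1849 FPKM beside Rps24. For Rpl38 the share in pseudogenes was 96.6 and 96.4%, with Rpl38-ps2 at 826.9 and 1043 FPKM, and for Rps12 it was 93.2 and 94.1%. Copies of at least 90% identity over at least 50% of the coding sequence were found for all but 4 members, with a median of 9 a gene, and Rpl7a, Rpl21, Rpl29 and Rpl17 had the most at 88, 80, 66 and 55. No source used here says how multiply mapped reads were shared, so the level of a single member with copies is uncertain.

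Genes and their pseudogenes had related ratios between the liver libraries. Over the 46 members of at least 5 FPKM in both libraries whose summed pseudogenes also reached it, the 2 log2 ratios had Pearson's r of 0.81 and Spearman's rho of 0.65, as a description across pairs that share sequence. Whether they also share reads was not tested. All 5 of these members below -0.5 had pseudogenes below -0.5. Rpl28 was at -1.17 and its pseudogenes at -1.19, Rps2 at -0.89 and -0.71, Rpl14 at -0.88 and -0.64, and Rps13 at -0.61 and -0.82. Rps23 was the widest exception, at 0.40 with its pseudogenes at -0.33, and Rps23-ps2 had the lowest ratio of any counted pseudogene, with 302.7 and 114.6 FPKM (-1.40). Of 136 counted pseudogenes 88 lay above 0 (median 0.12), with 0 at least 2-fold higher and 4 lower, beside 6.53% and 9.75% of all counted liver genes. Rpl39-ps was the highest at 775.6 and 1177 FPKM (0.59).

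**Figure D4:**
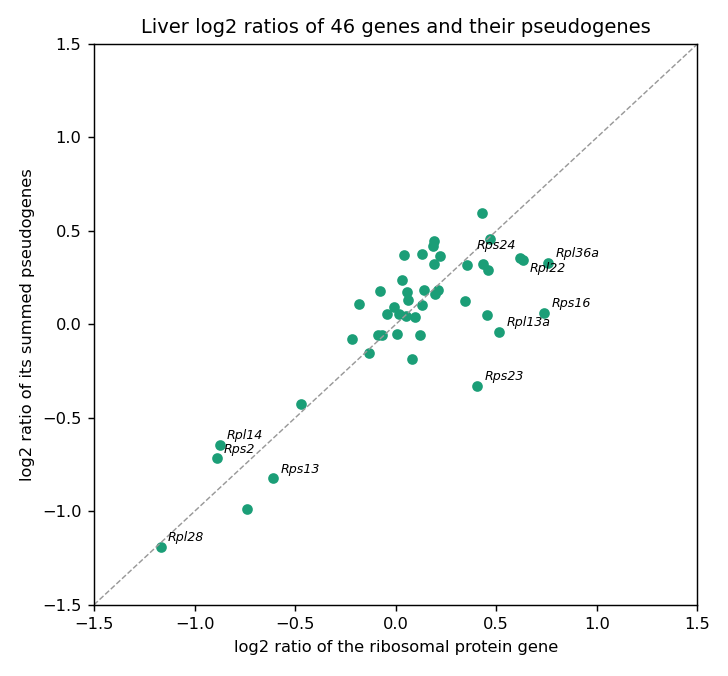
Liver log2 ratio (Adar1-Mavs-labelled over Adar1-labelled) of each of 46 ribosomal protein genes (horizontal axis) and of its summed pseudogenes (vertical axis). The dashed line marks equal ratios. The 5 lowest genes lie near the line, and Rps16, Rpl13a and Rps23 lie below it.

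The GC content of a gene's representative transcript went with its ratio in liver. Over the 76 members of at least 5 FPKM in both libraries, the log2 ratio and the GC percentage had Spearman's rho of -0.51 and Pearson's r of -0.46, beside -0.42 and -0.39 over 6813 other genes of that level and -0.28 and -0.25 over the 943 other genes at or above 50 FPKM. The 26 members of lowest GC (37.3 to 49.4%) had a median of 0.27, the middle 25 a median of 0.18 and the 25 of highest GC (53.3 to 60.8%) a median of -0.01. Other genes in these 3 ranges had medians of 0.15, -0.12 and -0.32. Those genes were not matched to the members for level, and abundant genes as a whole had a higher median (0.17) than the members (0.14). After centring within 20 GC bins the members' median was 0.29, with 3 genes at least 2-fold higher and 0 lower. With transcript length the ratio had a rho of 0.03 and with the number of copies a rho of 0.10. All these points share the 2 libraries. In embryos the ratio and GC had a rho of -0.37 and r of -0.12 over the 10 members, and a rho of -0.03 over 963 other genes.

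**Figure D5:**
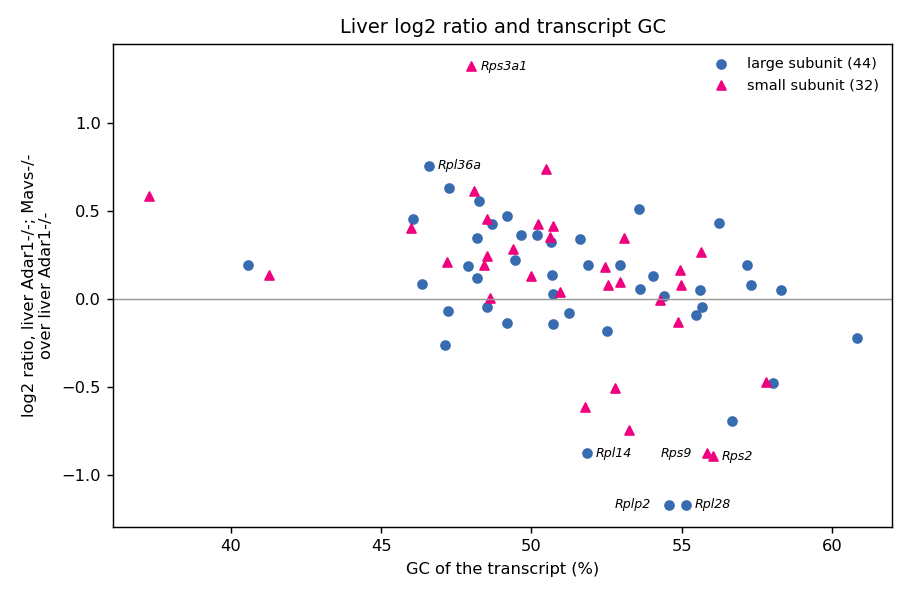
Liver log2 ratio (vertical axis, Adar1-Mavs-labelled over Adar1-labelled) against the GC percentage of the transcript (horizontal axis) for 76 members of at least 5 FPKM in both libraries, 44 of the large subunit (circles) and 32 of the small subunit (triangles). GC is that of a representative transcript of each gene. Genes past 0.75 in size are named. The named low genes lie above 50% GC, and the scatter falls from left to right.

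Members with and without a scored TOP tract both had median ratios above 0 in liver. The 29 with a tract had a median log2 ratio of 0.08 and median levels of 137.8 and 130.6 FPKM. The 30 without one had a median of 0.19 and median levels of 113.1 and 149.3 FPKM. The lowest ratio was -1.17 with a tract and -0.61 without one. Rpl28 and Rplp2, the 2 members 2-fold lower, both hold a tract that begins at the annotated start site, the sixth base of the windows shown above. Rps2, Rpl14, Rps9 and Rpl35, among the lowest of the others, hold a tract too. Of the members counted as 2-fold higher, Rpl35a holds one at its second start, and Rps3a1 and Rpl9 hold none. FPKM measures the amount of a message and not its translation.

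Paralogs with restricted expression were low in liver. Rpl3l, the copy of Rpl3 known from heart and skeletal muscle, was listed at 0 in the Adar1-labelled library and had 0.27 FPKM in the other, beside 103.5 and 119.2 FPKM for Rpl3. Rpl10l had 0.065 and 0.016 FPKM, and both were too low to be counted. Rpl39l had 0.22 and 1.07 FPKM (0.77), beside 96.4 and 130.6 for Rpl39. With a pseudocount of 0.1 FPKM the Rpl39l ratio was 1.89, and the liver count of members past 2-fold was 6. Rpl22l1, the partner that Rpl22 is known to repress, had 9.52 and 11.1 FPKM (0.20), Rpl7l1 had 19.5 and 17.8 (-0.13), and Rps27l, a p53-responsive copy of Rps27, had 137.8 and 208.2 (0.59). Rps27l thus exceeded Rps27 itself (52.9 and 71.2 FPKM), whose coding copy Rps27rt held 619.6 and 717.2. A short isoform of 271 bases held 58.5 and 60.8% of the Rps27l value.

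The ribosomal proteins the rule misses were abundant too. Rack1, a scaffold on the small subunit, had 935.9 and 909.8 FPKM in liver (-0.05) and 2159 and 1765 FPKM in embryos (0.13). Fau had 135.9 and 113.5 FPKM (-0.26), Rpl36al was at 0.23 and Rps27rt at 0.20. Their median of 0.03 over 5 genes, with 0 past 2-fold, lay within the members' range.

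Genes that act with the ribosome were read from lists beside the members. Over all counted liver genes, 6.53% were 2-fold higher, 9.75% were 2-fold lower and 42% lay above 0. Of 21 translation factors and other TOP mRNAs in liver, 10 had ratios above 0 (median -0.07), 1 was counted as 2-fold higher and 2 were lower. Those lower were elongation factors, Eef1g at 125.4 and 43.7 FPKM (-1.51) and Eef2 at 304.0 and 130.3 (-1.22), while Eef1a1, which delivers aminoacyl-tRNA, had 3034 and 2848 (-0.10). Hnrnpa1 was the gene counted as higher, listed at 0 and at 3.28 FPKM. Of 30 ribosome biogenesis genes 8 lay above 0, with a median of -0.26 and 1 lower by 2-fold, Gar1 of the H/ACA ribonucleoproteins, at 24.7 and 11.4 FPKM (-1.06). Its partners Nhp2 and Dkc1 were the highest of the list, at 0.83 and 0.82. Of 78 mitochondrial ribosomal protein genes counted, 38 lay above 0 (median -0.03), 4 were 2-fold higher and 3 lower. The extremes of that list were genes listed at 0 in 1 library, Mrpl51 at 0 and 45.3 FPKM and Mrps26 at 19.0 and 0. Of 13 S6 kinase and TOR pathway genes 4 lay above 0 (median -0.42), and 1 was past 2-fold on each side. Rps6kb2 was listed at 0 and at 1.09 FPKM, and Larp1, the TOP-binding protein, had 28.4 and 11.7 FPKM (-1.22).

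In embryos these lists were thin. Over all counted embryo genes, 6.42% were 2-fold higher, 9.76% were 2-fold lower and 41.3% lay above 0. All 4 translation factors held lay above 0 (median 0.18), with Nap1l1, a histone chaperone, at 24.9 and 40.6 FPKM (1.09) and Eef2 at 647.0 and 536.6 (0.15). Of 8 biogenesis genes 5 lay above 0 (median 0.11), and of 12 mitochondrial ribosomal protein genes 11 did (median 0.32), with Mrpl12 at 1.07. Rps6kb1, an S6 kinase, had 17.9 and 4.82 FPKM (-1.34). The ribosomal protein pseudogenes had a wide spread, with 6 of 16 at least 2-fold higher and 1 lower.

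Between tissues, the order of the 10 members held in all 4 libraries was partly kept. Between embryo and liver with the Adar1-/- label, Spearman's rho was 0.77 and Pearson's r 0.72, as a description across genes. Liver over embryo, the scaled log2 ratios ran from -2.17 (Rpl38) to 2.87 (Rps12) with the Adar1-/- label and from -1.71 to 1.25, in the same 2 genes, with the Adar1-/-; Mavs-/- label. Levels of both genes are uncertain, since in liver pseudogenes held 96.6 and 96.4% of the Rpl38 signal and 93.2 and 94.1% of that of Rps12. The Adar1-/- embryo value of Rps12 came wholly from an assembled isoform. With the Adar1-/- label 2 members were at least 2-fold higher in liver and 3 lower (median -0.24), beside 24.9% and 28.9% of 2095 genes (53.8% either way). With the Adar1-/-; Mavs-/- label 2 were higher and 4 lower (median -0.20), beside 29.1% and 27.8% of 1989 genes (56.8% either way). Rpl38 had 28.8 and 39.5 FPKM in liver, below both embryo values, Rpl27 had 57.4 and 54.3, and Rpl19 had 157.5 and 160.3. Rps27a had 77.9 and 107.6 FPKM in liver, above both embryo values, as did Rps12 with 45.5 and 52.1. Rps15, with 370.3 and 268.6 FPKM in liver, was past 2-fold with the Adar1-/-; Mavs-/- label (-1.22) and just inside it with the other (-0.98). Rps26 had 555.5 and 560.8 FPKM in liver and, like Rpl23, Rpl23a and Rpl26, lay within 2-fold in both pairs. With TPM 1 member was 2-fold higher and 8 lower for the Adar1-/- label (median -2.14), and 0 were higher and 5 lower for the other (median -1.66). With isoforms of at least 500 bases alone, which leaves 8 members, the medians were 0.24 and 0.59. The counts and the sign of the median thus rest on these choices. Tissue, age and strain label differ together between these libraries and cannot be told apart.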

How the data were processed

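Genome build mm9, TopHat 1.4.0, Cufflinks 2.2.1 and edgeR 3.4.2 are named, per the submitters' processing notes, without the role of each. The deposited files hold 1 FPKM per isoform and library with confidence bounds, a status, a length in bases and a coverage signal, per the file headers. RNA was extracted with Trizol, per the labels' protocols. No source used here says whether strand was kept, so overlapping antisense genes may share reads.

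Transcript identifiers were matched to GENCODE M21 symbols (90.2, 88.7, 86.7 and 86.7% matched, embryo libraries first) and isoform FPKM summed by symbol. An unmatched reference identifier or assembled isoform was counted under the symbol it overlapped best within its Cufflinks gene. This changed 8 members, and 5 of them (Rpl13a, Rps4x, Rps18, Rps23 and Rps24) were listed at 0 in liver without it. Confidence bounds of a gene were combined from the deposited bounds of its isoforms, as the root of the summed squared distances. This treats the isoforms of a gene as independent. In the 2 liver libraries 63.5 and 64.7% of the members' FPKM had status LOWDATA. GC content, length and coding sequences came from a representative GENCODE M21 transcript of each gene, coding types first. It is not always the isoform that held the FPKM. Copies were found with blastn 2.17.0. Ratios used a pseudocount of 1 FPKM, 2-fold is a log2 ratio of 1, and the code was tested on simulated data.

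Members and lists were chosen with earlier results of these data known. Named genes were all embryo members, and in liver the 5 highest and lowest ratios, the 5 most abundant, the paralogs, members listed at 0 in 1 library, Diamond-Blackfan genes past 2-fold, the embryo members, and the extremes and most abundant gene of each related list. Other members named were chosen after their values were seen. A few genes' own values are not reported here. No protein sequence is shown, as the reference used here gave none.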

Additional observations from a re-analysis of the deposited data

Results flagged for a closer look

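Rps7 had 40.2 FPKM and Rps29 had 4.86 FPKM in the embryo Adar1-/-; Mavs-/- library. These genes lie past 11.7 Mb of chromosome 12, where the values held here for the other embryo library ended. Both lie outside every embryo comparison above. In liver they had 59.8 and 73.5 FPKM (Rps7) and 8.33 and 10.9 FPKM (Rps29), the Adar1-labelled library first.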

How the results depend on the processing

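Over 16 alternatives the embryo median ran from -0.67 to 0.39. It left the 95% interval of the main median, taken from ranks over members (0.04 to 0.62), in 2 cases. These were FPKM as deposited (-0.15) and TPM over shared named genes (-0.67). The embryo count of 2-fold genes fell to 0 with members of at most 5 near-identical copies, with pseudogenes added and with copies added. The liver median ran from -0.18 (TPM) to 0.29 (centring within GC bins), and was 0.27 with an upper quartile factor, where 79.7% were above 0. The liver count of 5 members past 2-fold became 10 with TPM, 8 with status OK alone, 8 with matched identifiers alone, 3 with pseudogenes added, 3 with isoforms of at least 500 bases, 3 with GC bins, 2 with copies added and 1 with members of at most 5 copies. The liver over embryo median was -2.14 (Adar1-/- label) and -1.66 (Adar1-/-; Mavs-/- label) with TPM, and 0.24 and 0.59 with isoforms of at least 500 bases. Rps12 in embryos turned to -0.47 with status OK alone. Rpl9 in liver turned to -0.10 with pseudogenes or copies added. The alternatives on matched identifiers, GC bins and copies were chosen after seeing the data. The cause of these changes was not tested, other than fewer genes or shared copies where the setting itself sets them. Another scaling shifts all ratios of embryos by -0.42 (as deposited), 0.12 (upper quartile) or -0.94 (TPM), and of liver by 0.01, 0.13 or -0.32. No paired analysis was possible because each group holds 1 library. Leaving out a library was not possible for the same reason. Rpl13 and Rpl41 could not be read at any depth here.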
